A study of Zea mays with 8 samples.

Results

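SWEET14a (Zm00001d007365) and SWEET15a (Zm00001d050577) are sugar transporter genes that published work uses as markers of the endosperm adjacent to the scutellum (EAS) of the maize kernel. The 2 genes were picked by these IDs from 37965 genes in the count table, with earlier results of these data known. Both were among the 22014 genes that were tested. RNA-seq was carried out on EAS-enriched endosperm of the maize inbred line A188 at 19 days after pollination. The KIL1 KIL2 knockout group had 4 libraries and the wild type (WT) group had 4 libraries. Both groups share the line, the tissue and the age, and the labels give neither the alleles of the knockout nor whether a library came from 1 kernel, 1 ear or a pool. The p-values therefore set the difference between the genotypes against the spread between these libraries, which may be technical in part.

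SWEET proteins are membrane carriers that let sugars pass down their concentration gradient, and the clade to which SWEET14 and SWEET15 proteins belong mainly carries sucrose out of cells. The EAS is a thin layer of endosperm that faces the scutellum, the absorbing organ of the cereal embryo, and sugar leaving it can reach the embryo. The embryo grows into the space of the endosperm, and the EAS cells in its way are removed. KIL1 and KIL2 are transcription factors of the NAC family, related to KIRA1, which promotes the death of stigma cells in Arabidopsis, and the title of the study names the elimination of endosperm as their role. The comparison asks how the sugar exporters of this layer stand when both factors are lost.

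SWEET14a lay on chromosome 2 (236297623 to 236300006, plus strand) in the deposited A188 annotation, with 6 exons of 1424 bases in all over a span of 2384 bases. SWEET15a lay on chromosome 4 (104117520 to 104119447, plus strand), with 4 exons of 1478 bases in all over 1928 bases. No other gene of the table overlapped either span. The models shared details of their layout. The second exon had 37 bases in both genes. Exon 3 of SWEET15a had 373 bases, which is the summed length of the exons 3 and 4 of SWEET14a (211 and 162 bases). The last exon of SWEET15a had 831 bases, against 801 bases for the last 2 exons of SWEET14a together. The table does not mark coding and untranslated parts, so these are lengths of whole exons.

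**Figure D1:**
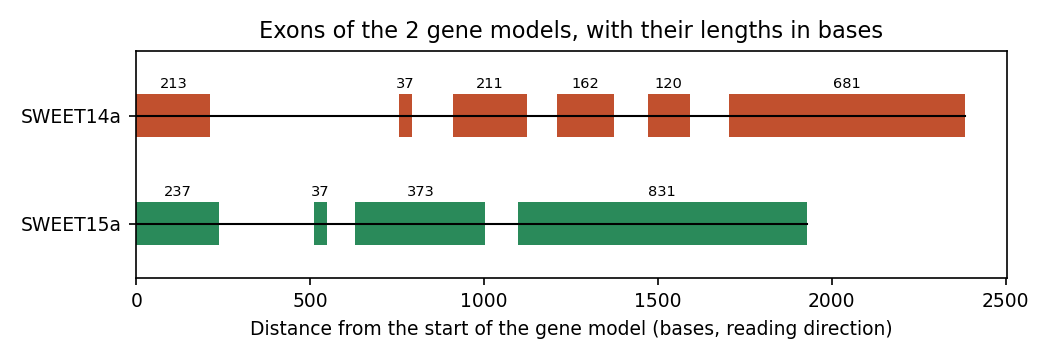
Exons (boxes, with their lengths in bases) and introns (lines) of SWEET14a above SWEET15a, drawn to scale by distance in bases from the start of each gene model. Both models have a second exon of 37 bases, and the 373 bases of SWEET15a exon 3 equal the sum of SWEET14a exons 3 and 4.

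Knockout libraries held 47143888 to 65625013 counts, and WT libraries held 58330218 to 80577963 counts. WT replicate 2 stood apart from the other WT libraries in its total, the highest of all 8, and in its SWEET14a level, so the fold changes, the ratio and the summed level are also given without it. The levels of KIL1 and KIL2 and of the planned marker lists of other kernel tissues were not analysed here, because no gene ID of the table matched an identifier of the reference table of gene names. The tissue label could thus not be checked. The levels of the 2 EAS markers alone cannot show enrichment without a marker of another tissue. Both were abundant in every library: by reads per kilobase of exon, SWEET14a ranked 90th to 171st of the 22014 tested genes in the knockout and 49th to 69th in WT, and SWEET15a ranked 200th to 298th in the knockout and 210th to 361st in WT.

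SWEET14a was lower in the knockout. Its normalised read count was 609, 620, 513 and 752 CPM (read counts scaled by the adjusted size of the library) in knockout replicates 1 to 4, against 891, 1218, 891 and 904 CPM in WT replicates 1 to 4. Every knockout library was below every WT library, with a gap between the highest knockout library and the lowest WT library. The gene averaged 624 ± 98.5 CPM in the knockout and 976 ± 162 CPM in WT (SD, n = 4 each). It was thus 1.56-fold lower in the knockout (log2 fold change -0.65, SE 0.13, 95% interval -0.92 to -0.37, edgeR adjusted p = 0.00506 by the quasi-likelihood test, with Benjamini-Hochberg adjustment over all tested genes). Over all tested genes 18.6% passed this threshold of 0.05, with 10.1% lower and 8.51% higher in the knockout. This split depended on scaling: of the genes that passed, 1873 were higher and 2213 lower with TMM factors, 1032 higher and 4743 lower with library totals, and 2229 higher and 2000 lower with upper quartile factors. Without WT replicate 2, 2783 of 22184 tested genes passed. The groups did not overlap, with the knockout lower, for 12.3% of all tested genes, and in either direction for 23.2%. Without WT replicate 2 the log2 fold change was -0.52 (edgeR adjusted p = 0.0112). In bulk tissue, fewer EAS cells in a sample and less SWEET14a RNA per EAS cell cannot be told apart.

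SWEET15a did not pass the test. It measured 333, 395, 356 and 431 CPM in knockout replicates 1 to 4, against 271, 381, 312 and 339 CPM in WT replicates 1 to 4. The groups overlapped: WT replicates 2 and 4 were above knockout replicate 1, and WT replicate 2 was also above knockout replicate 3. The mean was 379 ± 43.4 CPM in the knockout and 326 ± 46.3 CPM in WT (SD, n = 4 each). The log2 fold change was 0.22 (SE 0.11, edgeR adjusted p = 0.183, unadjusted p = 0.0624). Its 95% interval, -0.01 to 0.45, holds no fall of the size seen for SWEET14a. Without WT replicate 2 the log2 fold change was 0.31 (95% interval 0.08 to 0.53, edgeR adjusted p = 0.0758).

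**Figure D2:**
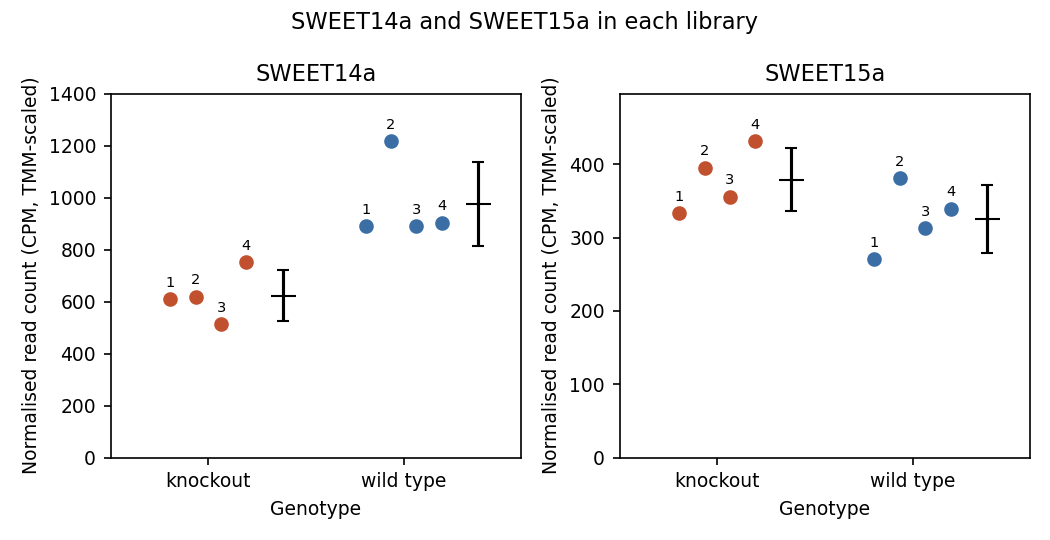
Normalised read counts (CPM, scaled by TMM factors) of SWEET14a and SWEET15a in each library, knockout left of wild type; numbers are replicate numbers, and the black bars give mean and SD (n = 4). The SWEET14a libraries of the genotypes do not overlap (513 to 752 CPM in the knockout and 891 to 1218 CPM in wild type), while those of SWEET15a do (333 to 431 CPM in the knockout and 271 to 381 CPM in wild type).

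Counting error was small beside the spread between libraries. SWEET14a was read 27692 to 48144 times per knockout library and 53567 to 104651 times per WT library. SWEET15a was read 15145 to 27611 times per knockout library and 16280 to 32713 times per WT library. Poisson counting error was 0.309% to 0.813% of the count over both genes and all libraries. The coefficient of variation between libraries was 15.8% in the knockout and 16.6% in WT for SWEET14a, and 11.5% in the knockout and 14.2% in WT for SWEET15a. Both genes varied more between replicates than the trend for genes of their abundance: edgeR estimated a biological coefficient of variation of 12.8% for SWEET14a where the trend stood at 8.01%, and 10.9% for SWEET15a where it stood at 7.86%.

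Replicates of a genotype ranked alike for both exporters at the upper end. Knockout replicate 4 was the highest knockout library for SWEET14a and for SWEET15a, and WT replicate 2 was the highest WT library for both. The lowest libraries were not all shared. In the knockout, SWEET14a was lowest in replicate 3 and SWEET15a in replicate 1. In WT, replicate 1 was the lowest for SWEET15a, while its SWEET14a level (891 CPM) was the same as that of replicate 3.

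The balance between the 2 exporters differed between the genotypes. SWEET14a was the more abundant in every library. Per kilobase of exon, the ratio of SWEET14a to SWEET15a reads was 1.90, 1.63, 1.50 and 1.81 in knockout replicates 1 to 4, against 3.42, 3.32, 2.96 and 2.76 in WT replicates 1 to 4. All knockout ratios were below all WT ratios. This ratio is formed within a library and depends on no scaling between libraries. It averaged 1.71 ± 0.18 in the knockout and 3.11 ± 0.31 in WT (SD, n = 4 each), a difference of -0.87 on the log2 scale, or 1.82-fold lower in the knockout (two-sided exact permutation test, p = 0.0286, which is the smallest that 4 against 4 can give). SWEET14a made up 59.9% to 65.5% of the summed level of the pair in the knockout and 73.4% to 77.4% in WT. WT replicate 2, high for both genes, had a ratio inside the range of the other WT libraries, and the log2 difference without it was -0.84. The ratio uses the same counts as the 2 fold changes, so it is not separate evidence. Its p is not adjusted, and the genes were picked with earlier results known. For single genes, the groups did not overlap in either direction for 23.2% of all tested genes. The share of other gene pairs whose ratios were apart was not computed. The lower ratio does not show that SWEET15a did not change.

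The summed level of both exporters was not shown to differ. It was 653, 703, 601 and 820 CPM per kilobase in knockout replicates 1 to 4, against 809, 1113, 837 and 864 CPM per kilobase in WT replicates 1 to 4. Knockout replicate 4 was above WT replicate 1, and the other knockout libraries were below all WT libraries. The mean was 694 ± 93.7 CPM per kilobase in the knockout and 906 ± 140 CPM per kilobase in WT (SD, n = 4 each). The difference in log2 sum was -0.38 (two-sided exact permutation test, p = 0.0571), and -0.28 without WT replicate 2 (exact permutation p = 0.114). When library totals replaced the TMM factors, the difference was -0.50 and the groups no longer overlapped (exact permutation p = 0.0286).

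**Figure D3:**
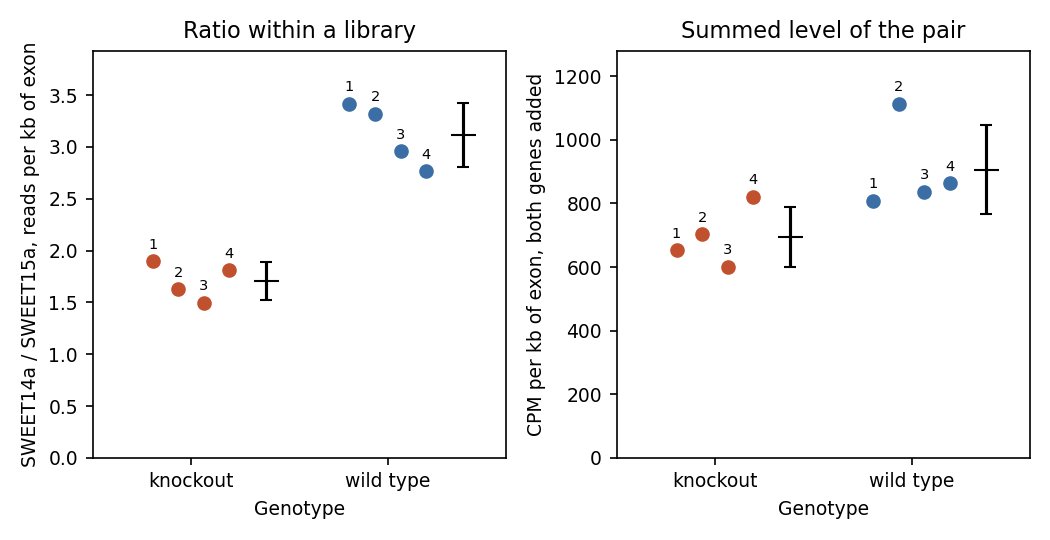
Left, ratio of SWEET14a to SWEET15a reads per kilobase of exon in each library; right, their summed level in CPM per kilobase; knockout left of wild type, numbers are replicate numbers, black bars are mean and SD (n = 4). The ratios of the genotypes are apart (1.50 to 1.90 in the knockout and 2.76 to 3.42 in wild type), and the sums overlap at 820 in knockout replicate 4 and 809 in wild type replicate 1.

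Per kilobase of exon, SWEET14a averaged 438 ± 69.1 CPM per kilobase in the knockout and 685 ± 114 CPM per kilobase in WT (SD, n = 4 each). SWEET15a averaged 256 ± 29.4 CPM per kilobase in the knockout and 220 ± 31.3 CPM per kilobase in WT. The levels of SWEET14a were thus above those of SWEET15a in both genotypes, and of neighbours in the order of levels, the ranges overlapped for SWEET15a in the knockout and in WT and for no other. The lowest SWEET14a level in the knockout was 360 CPM per kilobase and the highest SWEET15a level in the knockout was 292 CPM per kilobase.

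By read counts, SWEET14a ranked 138th, 136th, 178th and 104th of all genes in knockout replicates 1 to 4, against 81st, 56th, 80th and 81st in WT replicates 1 to 4. SWEET15a ranked 305th, 246th, 288th and 216th in the knockout, against 408th, 232nd, 322nd and 293rd in WT. The ranks of the genotypes were apart for SWEET14a and overlapped for SWEET15a. Over all tested genes the median log2 fold change was -0.003, and 1215 (5.52%) had a log2 fold change below that of SWEET14a. By adjusted p, 6.38% of the tested genes ranked ahead of SWEET14a and 34.1% ahead of SWEET15a.

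**Figure D4:**
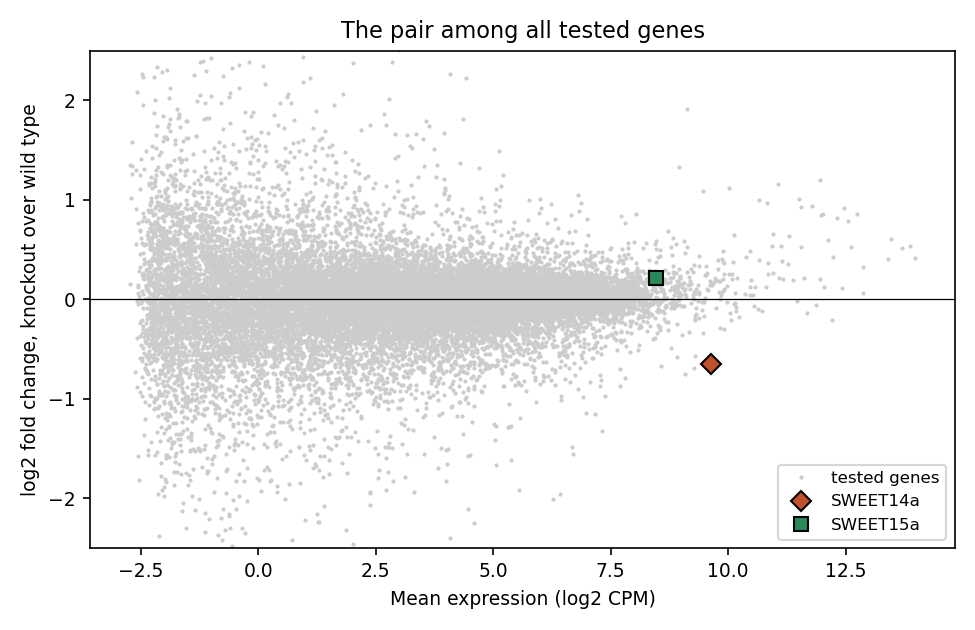
Log2 fold change of knockout over wild type against mean log2 CPM for all tested genes (grey), SWEET14a (diamond, -0.65) and SWEET15a (square, 0.22); 62 genes lie outside the plotted range. Both exporters lie towards the abundant end of the tested genes, SWEET14a below the zero line and SWEET15a above it.

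Scaling moved both genes by the same amount and left their directions as they were. Library totals lowered the median over all tested genes to -0.12 and gave -0.76 for SWEET14a and 0.10 for SWEET15a. Relative to the median of all genes these are -0.64 and 0.22, as with TMM factors (-0.64 and 0.22). A change of scaling shifts all genes nearly alike, so this match follows from the calculation and is no separate support.

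The genes whose levels tracked the exporters most closely were not the same for both. Likeness was the Pearson correlation of log2(CPM + 0.5) over the 8 libraries, given as a description, and it takes in the difference between the genotypes and WT replicate 2, the highest WT library for both exporters. Among 16428 other genes whose log2 CPM averaged at least 1, Zm00001d051756 (chromosome 4, 177269143 to 177273969) was most like SWEET14a (r = 0.990 over 8 libraries). That gene measured 45.7, 44.0, 39.4 and 50.1 CPM in knockout replicates 1 to 4, against 56.6, 63.8, 55.7 and 54.7 CPM in WT replicates 1 to 4. Its libraries thus had the same highest member in each genotype as SWEET14a, and the genotypes did not overlap. Its log2 fold change was -0.36 (SE 0.07, edgeR adjusted p = 0.0066). The choice of this gene by likeness to SWEET14a favours these traits, and nothing is read from them. The 20 genes most like SWEET14a had r of 0.976 to 0.990. Of these, 18 were lower in the knockout at the edgeR threshold and 0 were higher, a split that the choice by likeness to SWEET14a favours and from which nothing is read.

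For SWEET15a, Zm00001d029264 (chromosome 1, 65914656 to 65924258) was most alike (r = 0.983 over 8 libraries). It measured 14.9, 15.9, 15.0 and 16.9 CPM in knockout replicates 1 to 4, against 13.3, 15.3, 14.2 and 15.1 CPM in WT replicates 1 to 4. The groups overlapped, as they did for SWEET15a, and the log2 fold change was 0.11 (SE 0.07, edgeR adjusted p = 0.277). The 20 genes most like SWEET15a had r of 0.912 to 0.983, and 3 of them were higher and 0 lower in the knockout at the edgeR threshold, where 8.51% of all tested genes were higher and 10.1% lower. Here too the choice by likeness favours 1 direction. The exporters were not close to each other by this measure (r = -0.16 over 8 libraries), where 9320 genes were nearer to SWEET14a than SWEET15a was. With each genotype centred on its own mean the value was 0.75, and 812 genes were nearer to SWEET14a. The files do not pair these IDs with names.

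Few of the genes next to the exporters could be tested. The 5 nearest genes on each side of SWEET14a lay 8486 to 277094 bases away. Of these 10 genes 5 were tested, 1 was lower and 0 were higher in the knockout at the edgeR threshold, and their log2 fold changes ran from -0.37 to 0.40. The 10 neighbours of SWEET15a lay 134769 to 802361 bases away, 3 were tested, 1 was lower and 0 were higher, with log2 fold changes from -0.25 to 0.17. With 5 and 3 genes tested, these counts cannot be set apart from the 18.6% of all genes that passed.

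**Figure D5:**
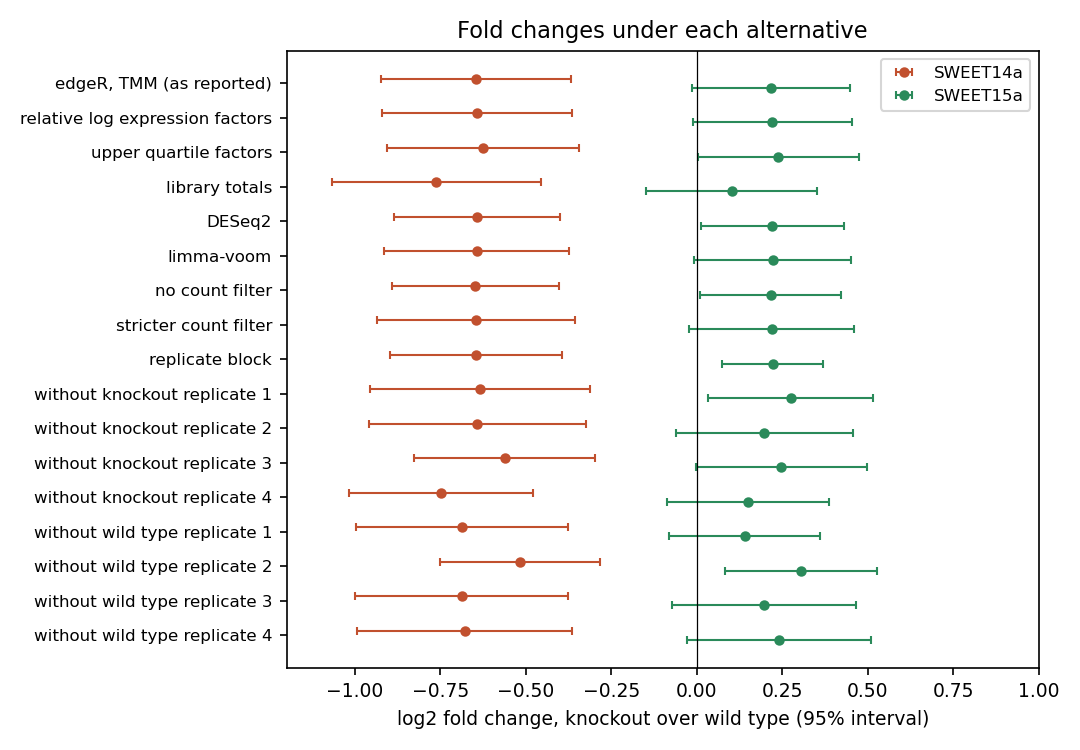
Log2 fold change of knockout over wild type with 95% intervals for SWEET14a and SWEET15a under the reported fit and 16 alternatives. SWEET14a lies between -0.76 and -0.52 in the alternatives and SWEET15a between 0.10 and 0.31.

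The calls on both genes were the same in all 16 alternatives. SWEET14a was lower with an adjusted p of 4.41e-06 (DESeq2) to 0.016 (edgeR without knockout replicate 1). The log2 fold change of SWEET15a stayed above 0 without passing the test, with adjusted p of 0.0583 (edgeR with the replicate number as a block) to 0.539 (edgeR with library totals). The 95% interval of SWEET15a, not adjusted over genes, lay above 0 with upper quartile factors, DESeq2, no count filter and the replicate block. It also lay above 0 without knockout replicate 1 and without WT replicate 2. In the other alternatives it held 0.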

How the data were processed

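The deposited values are raw counts of reads per gene in 8 RNA-seq libraries, made by the authors with featureCounts 2.0.1 and an A188 annotation, per the file headers. Trimmomatic 0.39 and HISAT2 are named in the submitters' processing notes. The counting command in the header sets no option for multi-mapping reads, strand, pairs or overlaps, so reads with several alignments were left out, and reads shared with close SWEET copies would be missing. Another deposited column, of other content, was the exon length in bases.

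Counts were analysed with R 4.3.3 and edgeR 4.0.16: filterByExpr (22014 of 37965 genes, 99.96% of counts), TMM factors, and the quasi-likelihood test between the genotypes, with p-values adjusted by Benjamini-Hochberg over all tested genes. Standard errors came from the F statistic. CPM uses TMM-scaled totals. Ratios and sums were tested with exact permutation tests (SciPy 1.17.1). The procedure was tested on simulated data. Alternatives used DESeq2 1.42.0, limma 3.58.1 (voom), other scalings, filters, left-out libraries and a replicate block. The members and lists were chosen with earlier results of these data known. Besides the members, named genes were the tested gene most correlated with each member. Of the planned lists, 0 of 32 sugar transport and cleavage symbols and 0 of 22 cell type markers matched an ID of the count table through the reference table (assembly Zm-B73-REFERENCE-NAM-5.0), so no list was analysed. Sequences of the genes are not shown here.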

Additional observations from a re-analysis of the deposited data

Results flagged for a closer look

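WT replicate 2 had 1218 CPM of SWEET14a, where the other WT libraries had 891 to 904 CPM. This gap was large against the range of the group by Dixon's test. The same library also had the highest total of the WT group by the same test, 80577963 counts, where the others had 58330218 to 61613873. Of 10 sets of 4 values examined, 2 had such a library, and in both it was WT replicate 2. Chance gives about 1 in 20 for a single set. The sets share counts and libraries, so no excess over chance is read from this. The log2 fold change of SWEET14a was -0.52 without this library and -0.65 with it, and the part of depth in the level was not tested.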

How the results depend on the processing

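Log2 fold changes without each library were -0.75 to -0.52 for SWEET14a and 0.14 to 0.31 for SWEET15a, and the number of changed genes was 2783 to 4012, against 4086 with all libraries. Without each library the log2 difference in the ratio was -0.92 to -0.81, with an exact permutation p of 0.0571 each time, the smallest that 3 against 4 can give. The difference in the sum was -0.46 to -0.28. With library totals the sum differed by -0.50 (exact permutation p = 0.0286), and with upper quartile factors by -0.36. With a replicate block the log2 fold changes were -0.65 (edgeR adjusted p = 0.0083) and 0.22 (edgeR adjusted p = 0.0583), 3000 genes changed, and the ratio differed by -0.87 (exact sign-flip permutation p = 0.125, the smallest that 4 pairs can give). Same-numbered libraries did not clearly deviate together (correlations 0.101, 0.103, -0.049 and -0.126), and for 2 of the 8 libraries the closest library of the other genotype bore the same number, so the numbers were not taken as pairs. Alternatives planned for lists by symbol were not run, since no ID matched. Counting error was below the spread between libraries for both genes.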
